A study of Danio rerio with 2 samples.

Results

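Cartilage cells are described here from droplet single-cell RNA sequencing of zebrafish larval brains. They were chosen by their own counts: a cell barcode with 200 to 3000 genes, under 20000 UMIs (unique molecular identifiers, each counting 1 captured mRNA molecule) and under 15% of UMIs from mitochondrial genes was retained, and a retained cell with a UMI of at least 4 of the 6 genes *matn1*, *mia*, *snorc*, *ucmab*, *epyc* and *hapln1b* was a member. There were 134 cartilage cells among 8511 retained cells of the *rb1* mutant library, a share of 1.57% (95% interval 1.32–1.86), and 140 among 8150 of the sibling library, 1.72% (1.45–2.02). Together they were 274 of the 17356 deposited barcodes. Levels of the 6 marker genes, and any excess of a gene in these cells over the rest of the same library, follow in part from this choice and are given as description.

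The study dissected whole brains at 3 dpf (days post-fertilization) from homozygous *rb1* smu2/smu2 mutants and from siblings labelled wild type, and dissociated them with papain. Each genotype gave 1 library, made with the same 3′ kit, so the libraries have no replicates, no test between them can be made, and genotype, brain pool and library preparation cannot be told apart. *rb1* encodes the retinoblastoma protein, which restrains entry into the cell cycle. The labels give neither the number of brains in a library nor the sex or background strain of the fish, and they call the cells neurons, which did not hold for the cells described here. UMIs were summed over the cartilage cells of a library and divided by their total, as counts per 1000000 UMIs (CPM). The intervals in parentheses are 95% intervals, Clopper-Pearson for shares, exact Poisson for CPM and exact conditional binomial for ratios of CPM, and cover counting error only.

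The cartilage cells of the *rb1* mutant library held 1117294 UMIs, with 1310 to 18802 and a median of 7994.5 per cell, and those of the sibling library held 1171032 UMIs, with 1671 to 18001 and a median of 7621.5. The other retained cells were shallower, with medians of 3661 and 3352.5 UMIs. Their comparison groups were neurons (3389 *rb1* mutant and 3065 sibling cells with UMIs of at least 3 of 5 neuronal genes) and connective tissue cells (654 and 719 cells with UMIs of at least 4 of *col1a1a*, *col1a2*, *col5a1*, *angptl7*, *dcn* and *lum*). The libraries shared 16 barcodes, and 0 of these were cartilage cells.

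Cartilage is built by chondrocytes, which secrete fibrils of type II collagen and fill the space between them with aggrecan and other proteoglycans, long sulfated sugar chains on a protein core that hold water. In the head of the larval zebrafish most chondrocytes come from the neural crest, and they form the first jaw, gill arch and braincase skeleton next to the brain. The transcription factor Sox9 starts the programme and works with Sox5 and Sox6 on collagen genes. In later growth, chondrocytes can enlarge, make type X collagen and be replaced by bone.

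Summed over the cells, the cartilage label held for most of the marker genes that the rule did not use. *col2a1a* (ENSDARG00000069093), the main collagen of cartilage fibrils, had 19735 CPM (19476–19997) in the *rb1* mutant library and 23823 CPM (23544–24104) in the sibling library, against 367 and 624 CPM in the other retained cells of the same libraries. Every cartilage cell of both libraries had a UMI of *col2a1a* and of *cnmd*. In neurons, which should lack both genes, the share with a UMI of *col2a1a* was 2.57% and 3.1% at median depths of 3604 and 3452 UMIs. With each cell thinned to 2000 UMIs, 100% and 99.3% of cartilage cells kept a UMI of *col2a1a*, against 1.55% and 2.69% of neurons. For *cnmd* the thinned shares were 92.4% and 99.3% of cartilage cells and 0.387% and 1.19% of neurons. The marker that did not follow was *matn3a*, another matrilin, with 2 and 3 UMIs in the cartilage cells. Single cells differed widely, with *col2a1a* from 948 to 64567 CPM in *rb1* mutant and from 1319 to 70740 CPM in sibling cartilage cells. Several cells of each library, not the lowest alone, were below the summed level of connective tissue cells given further on, so the label was weaker for some members. The lowest *rb1* mutant cell had 5 UMIs of *col2a1a*, 0 of *matn1* and 9 of the keratin gene *krt18a.1*. The lowest sibling cell had 7, 0 and 73.

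The genes that chose the cells differed widely between single cells. *matn1* (matrilin-1, which links collagen fibrils and proteoglycans) had a median of 10135 CPM per cell in *rb1* mutant cartilage cells, with quartiles of 3173 and 26345, and a median of 21532 CPM in sibling cartilage cells, with quartiles of 6728 and 37308. It was without a UMI in 13 *rb1* mutant and 9 sibling members, which entered through other markers. *ucmab*, a Gla protein of the cartilage matrix, was without a UMI in 21 and 7 members. The medians per cell of *mia*, a small secreted chondrocyte protein, were 2423 and 2989 CPM, those of *snorc*, a membrane proteoglycan of chondrocytes in mammals, 1301 and 1616 CPM, and those of *epyc*, a small leucine-rich proteoglycan, 1001 and 1637 CPM. *hapln1b*, a link protein that ties aggrecan to hyaluronan, had 671 and 989 CPM. Cells of the 2 libraries overlapped for each of the 6 genes, and each median was lower in the *rb1* mutant library.

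**Figure D1:**
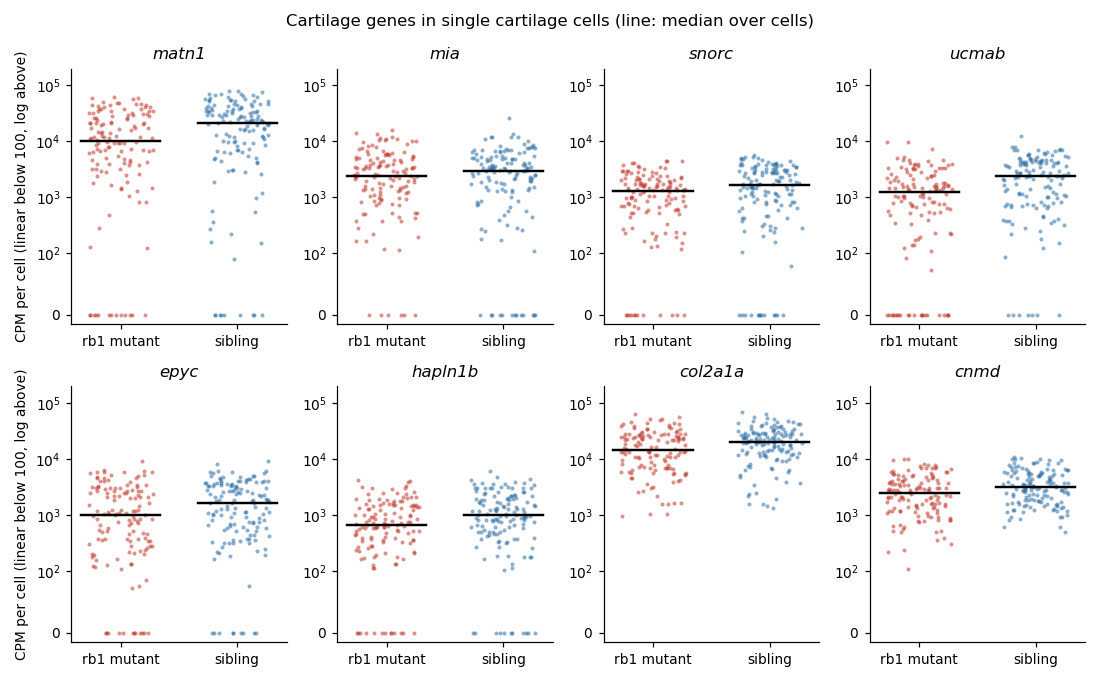
CPM per cell, on an axis that is linear below 100 and logarithmic above, of the 6 genes that chose the cells and of *col2a1a* and *cnmd*, in 134 *rb1* mutant (left) and 140 sibling (right) cartilage cells. Each point is a cell and each line the median over cells; for *matn1* the medians are 10135 and 21532 CPM, and every point for *col2a1a* and *cnmd* is above 0.

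Most members were well inside the rule, since 81 of 134 *rb1* mutant and 97 of 140 sibling members had UMIs of all 6 genes. Just inside it, 24 *rb1* mutant and 19 sibling cells had 4 genes, and just outside it 35 and 47 cells had 3. *col2a1a* had 6919 CPM in *rb1* mutant cells with 4 genes and 6434 CPM in those with 3, and 12811 and 16795 CPM in sibling cells. *col1a2*, a collagen of connective tissue and bone, had 76.7 CPM with 4 genes and 548 CPM with 3 in the *rb1* mutant library, and 200.2 and 481 CPM in the sibling library. Cells on both sides of the threshold thus carried the cartilage collagen, and those with 3 genes had more *col1a2*.

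The collagens of cartilage fibrils were high in both libraries. Of 9 listed collagen genes considered in the sibling library (mean CPM of at least 20 over the groups compared), 8 were at least 2-fold higher in cartilage cells than in the other cells, and in the *rb1* mutant library 8 of 8, while 13.9% of 3752 genes considered in the *rb1* mutant and 13.4% of 3973 in the sibling library were. A gene near 0 in the other cells passed this filter only through its level in cartilage cells. The filter thus sets counts of higher genes in part, here and below. A gene at the median of all genes considered had a log2 ratio of −0.75 and −0.80, and with ratios scaled to that median 901 genes were at least 2-fold higher and 869 lower in the *rb1* mutant library, in place of 520 and 1542, and 943 and 921 in the sibling library, in place of 532 and 1678. *col9a1a*, *col9a2* and *col9a3*, the chains of type IX collagen on the surface of type II fibrils, had 4334 and 5470.4 CPM, 5788 and 7239 CPM and 3405 and 4222 CPM in *rb1* mutant and sibling cartilage cells. Their ratios to the other cells were 53.1-fold and 42.7-fold, 44.6-fold and 37.6-fold and 49-fold and 39.9-fold. The chains of type XI collagen, which forms the core of the fibril, were also high, with *col11a1a* at 7409 CPM (7250.2–7570.3) in *rb1* mutant and 8369.5 CPM (8205–8537) in sibling cartilage cells and *col11a2* at 2697 CPM (2601–2795) in *rb1* mutant and 3377 CPM (3273–3484) in sibling cartilage cells. *col2a1b*, the second type II gene, had 1787 and 2027 CPM. The paralog *col11a1b* behaved otherwise, with 127 and 114 CPM in cartilage cells against 294 and 355 CPM in connective tissue cells, so that its ratio to connective tissue cells was 0.432 and 0.323. *col9a1b* had 0 UMIs in the cartilage cells of both libraries.

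Against connective tissue cells, which make other collagens, the contrast was smaller but of the same direction. *col2a1a* had 1629.9 and 2212 CPM there, so that its level in cartilage cells was 12.1-fold and 10.8-fold that of connective tissue cells, and 39% and 36.4% of connective tissue cells had a UMI of it. Of the 9 listed collagens considered, 7 were at least 2-fold higher in cartilage than in connective tissue cells in each library, where 11.4% of 3355 and 12.2% of 3458 genes considered were. The 6 genes that chose connective tissue cells set part of this contrast.

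Among the other matrix proteins a part was high and a part was at or near 0. *acana*, an aggrecan gene, had 106 CPM (87.4–126) in the *rb1* mutant library and 136 CPM (115–159) in the sibling library, against 0.598 and 1.08 CPM in the other cells. *acanb*, the other aggrecan gene, had 44 and 49 UMIs, or 39.4 and 41.8 CPM. *cnmd* (chondromodulin, which inhibits vessel growth) had 3278 and 4034 CPM, 47.7-fold and 39.8-fold the level of the other cells. *otos*, named for a secreted inner ear protein of mammals, had 4883 and 6322 CPM and was found in a part of the cells, with a UMI in 73.1% and 80% of cartilage cells and 0.531% and 1.17% of neurons. After thinning its shares were 67.4% and 75.4% of cartilage cells and 0.309% and 0.776% of neurons. *matn4*, a matrilin, had 1589 and 1221 CPM, against 666 and 882 CPM in connective tissue cells. *hapln1a*, the paralog of *hapln1b*, had 156 and 196 CPM in cartilage cells against 541 and 638 CPM in connective tissue cells. *hapln1b* had 8.05 and 8.81 CPM in connective tissue cells, but it is a gene of the rule, so its contrast follows in part from the choice of cells. *chad* (chondroadherin) had 22 and 25 UMIs, while *ucmaa*, *mgp*, *fmodb*, *bgnb*, *vcana* and *susd5* had 0 in both libraries. In all, 4 of 7 listed matrix genes considered in the *rb1* mutant and 6 of 10 in the sibling library were at least 2-fold higher than in the other cells. Of all genes considered 13.9% and 13.4% were. Against connective tissue cells 4 of 9 in the *rb1* mutant and 4 of 12 in the sibling library were at least 2-fold higher, and 4 and 6 at least 2-fold lower. Of all genes considered in that contrast 11.4% and 12.2% were higher and 24.3% and 25.7% lower. The median log2 ratio of the list to connective tissue cells was 0.31 in the *rb1* mutant and −0.94 in the sibling library. Over all genes considered it was −0.33 in each. The list as a whole was thus mixed against connective tissue cells.

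**Figure D2:**
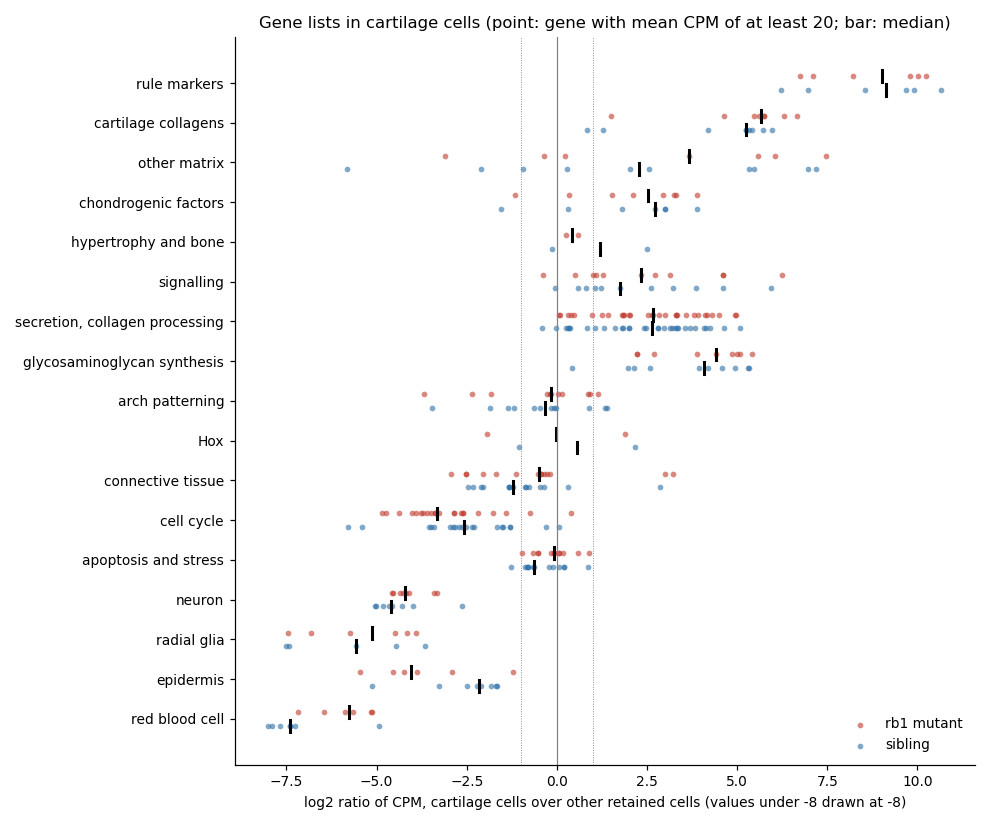
Log2 ratio of CPM in cartilage cells over the other retained cells of the same library, for each gene of a list with a mean CPM of at least 20 over both groups. Rows are gene lists, upper points the *rb1* mutant and lower points the sibling library, black bars the medians and dotted lines a 2-fold ratio, with ratios off the scale drawn at its left edge; the medians of the lists of cartilage collagens, secretion and glycosaminoglycan synthesis lie to the right of 0 in both libraries, and those of the cell cycle, neuron, radial glia, epidermis and red blood cell lists to the left.

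Outside the 6 markers, the 15 genes with the highest ratio to the other cells, by the lower of the 2 libraries, were *pcolceb*, *tnxba*, *ccn6*, *CLEC3A*, *itih1*, *si:dkey-31g6.6*, *ptgdsa*, *acana*, *prss35*, *arsia*, *fgfbp2b*, *col11a2*, *si:dkey-6n6.1*, *nog3* and *col11a1a*. *pcolceb*, a homologue of the enhancer of procollagen cleavage, had 553 CPM (510.4–599) in the *rb1* mutant library and 986 CPM (930.2–1045) in the sibling library, against 0.398 and 0.638 CPM in the other cells. *tnxba*, a tenascin, had 3615 and 3553 CPM, against 3.1 and 4.21 CPM. *fgfbp2b*, which belongs to the fibroblast growth factor binding proteins, had a UMI in every cartilage cell, with 16939 and 15777 CPM against 203 and 239 CPM. None of these 3 genes was used to choose the cells, and *pcolceb* and *tnxba* were close to absent from the other cells. *ccn6*, a matricellular protein, had 118 and 196 CPM, *itih1*, of the inter-alpha-trypsin inhibitor heavy chains that bind hyaluronan, had 143 and 243 CPM, and *ptgdsa*, a prostaglandin D synthase, had 342 and 417 CPM. *arsia*, an arylsulfatase gene, had 132 and 116 CPM. *prss35*, a serine protease family member, had 1795 and 2408 CPM, against 54.7 and 53.8 CPM in connective tissue cells.

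The transcription factors of the cartilage programme were present at lower counts. *sox9a* had 77 and 68 UMIs, 68.9 CPM (54.4–86.1) in the *rb1* mutant library and 58.1 CPM (45.1–73.6) in the sibling library, which was 9.85-fold and 7.91-fold the level of the other cells. It was seen in 38.1% and 36.4% of cartilage cells and 0.974% and 1.08% of neurons, and after thinning in 12.9% and 8.7%, against 0.464% and 0.868%. *sox5* and *sox6*, its partners, had 117 and 102 CPM and 489.6 and 502 CPM, with ratios of 4.35-fold and 3.48-fold for *sox5* and 9.46-fold and 8.05-fold for *sox6*. *sox10*, a factor of the neural crest, had 162 and 131 CPM, 14.7-fold and 14.8-fold the other cells and 37.1-fold and 25.6-fold the connective tissue cells. *sox9b* had 12 and 4 UMIs, so the *sox9* signal was nearly all *sox9a*. *foxc1b*, which takes part in forming the facial cartilages, had 160.2 and 149 CPM (7.74-fold and 6.58-fold the other cells). *barx1*, a factor of the arch mesenchyme, had 45.6 and 40.1 CPM in cartilage cells, against 193 and 149 CPM in connective tissue cells. Of 17 listed factors found in the data, 8 were considered in the *rb1* mutant and 7 in the sibling library. Among these, 6 of 8 and 5 of 7 were at least 2-fold higher than in the other cells, and *emx2* was lower in both. Of all genes considered 13.9% and 13.4% were higher. Against connective tissue cells 4 of 9 listed factors in each library were at least 2-fold higher, while 3 in the *rb1* mutant and 4 in the sibling library were at least 2-fold lower. Of all genes considered in that contrast 11.4% and 12.2% were higher and 24.3% and 25.7% lower.

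Several receptors and inhibitors of growth factor signals were higher than in the other cells. *fgfr3*, a receptor that restrains the growth of cartilage in mammals, had 574 CPM (530.1–619.9) in the *rb1* mutant library and 649 CPM (604–697) in the sibling library, against 21.6 and 22.7 CPM in connective tissue cells and 23.5 and 26.6 CPM in the other cells. *fgfr2* had 132 and 124 CPM in cartilage cells, against 164 and 168 CPM in connective tissue cells. *nog3* and *nog2*, secreted inhibitors of bone morphogenetic proteins (BMPs), had 289 and 339 CPM and 91.3 and 121 CPM, with 75.3-fold and 60.7-fold the level of the other cells for *nog3* and 6.64-fold and 9.34-fold for *nog2*. *frzb*, an inhibitor of Wnt signals, had 78.8 and 63.2 CPM (24.5-fold and 14.6-fold), and *bmpr1ba*, a BMP receptor, 68 and 51.2 CPM (8.72-fold and 6.11-fold). The inhibitors were thus well above the other cells in both libraries, and of the receptors *fgfr3* separated cartilage from connective tissue cells while *fgfr2* did not. Of 39 listed signalling genes found in the data, 11 were considered in each library, and 8 of the 11 were at least 2-fold higher than in the other cells. Of all genes considered 13.9% and 13.4% were. Against connective tissue cells 5 of 17 in the *rb1* mutant and 5 of 18 in the sibling library were at least 2-fold higher. At least 2-fold lower there were 7 and 8. Of all genes considered in that contrast 11.4% and 12.2% were higher and 24.3% and 25.7% lower.

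Cartilage cells also carried the machinery for making collagen and sulfated sugars. Of the listed genes of secretion and collagen processing, 24 of 30 considered in the *rb1* mutant and 25 of 32 in the sibling library were at least 2-fold higher than in the other cells and 0 were 2-fold lower, with median log2 ratios of 2.66 and 2.64, against the medians of −0.75 and −0.80 over all genes considered. Of all genes considered 13.9% and 13.4% were higher and 41.1% and 42.2% lower. *serpinh1b*, the collagen chaperone Hsp47, had 4854 CPM (4725–4985) in *rb1* mutant and 6765 CPM (6617–6916) in sibling cartilage cells, against 3248 and 3979.6 CPM in connective tissue cells. *plod3*, which hydroxylates lysines of collagen, had 689 and 895 CPM in cartilage cells, against 72 and 80.0 CPM, and *p4hb*, a subunit of the prolyl hydroxylase, had 1331 and 1367 CPM, against 326 and 329 CPM. All 3 were higher than in connective tissue cells, which also make collagen. *kdelr3*, which returns proteins to the endoplasmic reticulum, had 752 and 819.8 CPM, 31.5-fold and 24.8-fold the other cells.

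For the synthesis of glycosaminoglycans, the sugar chains of proteoglycans, 35 listed genes were found in the data. Of these, 28 in the *rb1* mutant and 32 in the sibling library had a UMI in cartilage cells. Most did not reach the mean CPM of at least 20, which a gene near 0 in the other cells reaches only through cartilage cells. Of those considered, 9 of 9 in the *rb1* mutant and 9 of 10 in the sibling library were at least 2-fold higher than in the other cells. Their median log2 ratios were 4.42 and 4.07. Of all genes considered 13.9% and 13.4% were higher, with medians of −0.75 and −0.80. *slc35d1a*, which brings nucleotide sugars into the Golgi or endoplasmic reticulum, had 308 and 409 CPM, against 10.6 and 10.3 CPM in the other cells. *ugdh*, which makes the sugar acid precursor, had 313 and 307 CPM, against 14.7 and 16.7 CPM. Sulfate handling was represented by *slc26a2*, a sulfate transporter, with 99.3 and 132 CPM (32-fold and 39.6-fold), and by *papss2b* and *papss2a*, which make the activated sulfate, with 279 and 339.9 CPM and 105 and 106 CPM. *fam20b*, a kinase that acts on the linker sugar, had 88.6 and 102 CPM (6.43-fold and 6.01-fold). Genes that supply sugar precursors and genes that supply sulfate were thus both high. Against connective tissue cells 9 of 10 listed genes considered in the *rb1* mutant and 9 of 11 in the sibling library were at least 2-fold higher, with ratios of 29.1-fold and 34.6-fold for *slc35d1a* and 14.8-fold and 11.2-fold for *papss2b*. Of all genes considered in that contrast 11.4% and 12.2% were higher.

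Most of the listed genes of chondrocyte enlargement and of bone had few or no UMIs in cartilage cells. Of 20 listed genes in the tables, 11 had 0 UMIs in *rb1* mutant and 8 in sibling cartilage cells, among them in both libraries *spp1*, *mmp13a*, *bglap* and *phospho1*. A count of 0 allows up to 3 UMIs a library. *runx3*, a Runx factor of the skeleton, had 14 UMIs in the *rb1* mutant and 27 in the sibling library. *runx2a* had 2 and 1, *runx2b* 2 and 4, and *sp7*, the osteoblast factor, 0 and 1. A UMI of at least 1 of the 20 genes was present in 44 of 134 *rb1* mutant and 62 of 140 sibling cells. *mef2cb*, which encodes a Mef2 transcription factor, was seen in the most cells, with 38 UMIs in 24 *rb1* mutant cells and 44 UMIs in 35 sibling cells. Its level was 34 and 37.6 CPM, within 2-fold of the 28.8 and 41 CPM of the other cells, and its thinned share was 5.3% and 6.52% of cartilage cells and 4.56% and 6.67% of neurons. *col10a1a*, the type X collagen gene, had 41 and 925 UMIs, but all 41 were in 1 *rb1* mutant cell of 15101 UMIs, and the sibling counts were 713 in a cell of 11110 UMIs and 212 in a cell of 11217 UMIs. The 3 cells had UMIs of all 6 cartilage markers, with 110, 233 and 139 UMIs of *matn1*. In neurons *col10a1a* was seen in 0.059% and 0.424% of cells, and in cartilage cells in 0.746% and 1.43%.

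A *hox* gene, *hand2* and *dlx5a*, which mark position in the head, were each found in a minority of the cells. A UMI of at least 1 of 25 arch patterning genes was found in 118 *rb1* mutant and 124 sibling cells. A UMI of at least 1 of 8 *hox* genes, which mark the hyoid and gill arches, was present in 33 of 134 *rb1* mutant cells (24.6%, 17.6–32.8) and 36 of 140 sibling cells (25.7%, 18.7–33.8). Most were *hoxa2b*, with 45 UMIs in 25 *rb1* mutant cells and 42 UMIs in 22 sibling cells, 3.7-fold and 4.46-fold the other cells. Its share was 18.7% and 15.7% of cartilage cells and 0.679% and 0.587% of neurons. After thinning the *hoxa2b* shares in cartilage cells were 8.33% and 2.9%, against 0.348% and 0.137% in neurons. Summed over the 8 *hox* genes the level was 60.9 and 87.1 CPM in cartilage cells, against 100.4 and 90.9 CPM in the other cells. Against connective tissue cells 2 *hox* genes were considered in each library, with 0 at least 2-fold higher and 1 at least 2-fold lower. Of all genes considered in that contrast 11.4% and 12.2% were higher and 24.3% and 25.7% lower. *hand2*, a factor of the ventral arches, was seen in 27 *rb1* mutant and 33 sibling cells (20.1% and 23.6%, against 0.59% and 0.392% of neurons), and *dlx5a*, of the ventral and intermediate arches, in 52 and 66 (38.8% and 47.1%, against 4.04% and 4.99%). Thinned, the shares were 10.6% and 5.07% for *hand2* and 20.5% and 26.8% for *dlx5a* in cartilage cells, against 0.503% and 0.274% and 3.71% and 5.02% in neurons. Part of the *hand2* UMIs came from members with little *matn1*. The sibling cells with the most *hand2*, 6 UMIs each, had 0 of *matn1* and 96 and 103 of the keratin gene *krt18a.1*. Those of the *rb1* mutant library, with 5 each, had 0 and 17 of *matn1* and 66 and 10 of *krt18a.1*. *hand2* and a *hox* gene were found together in 10 *rb1* mutant and 11 sibling cells. *matn1* had 16818 CPM in *rb1* mutant cells with a *hox* UMI and 18379 CPM in those without, and 24100.2 and 28856 CPM in sibling cells, with median depths of 9148 and 7373 UMIs in the *rb1* mutant library and 7921 and 7502 in the sibling library. Of 15 arch patterning genes considered against connective tissue cells in the *rb1* mutant library, 13 were at least 2-fold lower in cartilage cells, as were 11 of 14 in the sibling library, where 24.3% and 25.7% of all genes considered were. *twist1a*, of the arch mesenchyme, had 92.2 and 67.5 CPM in cartilage cells against 451 and 493 CPM in connective tissue cells.

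Genes of connective tissue and of the perichondrium, the sheath around cartilage, were low in most of the list and high for *sparc*. *sparc*, a collagen-binding matrix protein, had 3891 and 4826 CPM and a UMI in every cartilage cell, against 2471 and 3069 CPM in connective tissue cells. *col1a2* had 72.5 and 191 CPM in cartilage cells, against 2122 and 2973 CPM, and *postnb*, a periostin, 93.1 and 99.1 CPM, against 781 and 1033 CPM. Of the listed genes considered, 17 of 19 in the *rb1* mutant and 19 of 20 in the sibling library were at least 2-fold lower in cartilage than in connective tissue cells, a contrast that the genes choosing the connective tissue cells set in part. Of all genes considered in that contrast 24.3% and 25.7% were lower. *col5a1* and *postnb* came from a minority of the cartilage cells, *col5a1* from 48 *rb1* mutant cells and 44 sibling cells and *postnb* from 31 *rb1* mutant cells and 23 sibling cells. *col12a1a*, a fibril-associated collagen, came from 38 *rb1* mutant cells and 32 sibling cells.

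Stress genes, which dissociation can raise, were mostly within 2-fold of the other cells. *hsp70l*, a heat shock gene, had 8359 and 11305 CPM, against 8006 and 9930.4 CPM in the other cells, and *hspa8* had 1790.0 and 1777 CPM, against 2586 and 2777 CPM. The immediate early gene *jun* had 391 and 418 CPM, against 2121 and 2516 CPM in connective tissue cells. *ccng1*, a cyclin G gene that p53 turns on, had 454 and 517 CPM and a UMI in 127 *rb1* mutant cells and 130 sibling cells. Of the listed genes considered, 0 of 12 in the *rb1* mutant and 0 of 13 in the sibling library were at least 2-fold higher than in the other cells. Of all genes considered 13.9% and 13.4% were, so with so few listed genes the 0 says little. Against connective tissue cells 5 of 12 in the *rb1* mutant and 7 of 12 in the sibling library were at least 2-fold lower. Of all genes considered in that contrast 24.3% and 25.7% were.

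Most markers of other cell types were low. Summed over 8 neuronal genes the level was 205 and 248 CPM in cartilage cells, against 3541 and 3996 CPM in the other cells. For 8 red blood cell genes it was 171 and 75.1 CPM, against 9549.9 and 12193 CPM, and the share per cell ran from 0 to 0.424% and from 0 to 0.062%. Summed levels of the skeletal muscle list were 77 and 65.8 CPM, against 198 and 306 CPM in the other cells. Notochord and inner ear genes were sought because these tissues also make type II collagen: *oc90*, *otomp*, *tecta* and *zpld1a* of the inner ear had 0 UMIs in both libraries. Of the 9 listed genes, 5 in the *rb1* mutant and 4 in the sibling library had a UMI, in 25 and 21 cartilage cells. The list, which does not hold *otos*, summed to 45.6 and 35 CPM, against 67.2 and 67.8 CPM in the other cells. The macrophage genes *mpeg1.1*, *marco* and *spi1b* and the endothelial genes *kdrl*, *cdh5* and *tie1* had 0 UMIs in both libraries. The endothelial list of 8 genes summed to 46.5 and 40.1 CPM, against 79.7 and 98.2 CPM in the other cells. At least 1 of its genes had a UMI in 38 *rb1* mutant and 37 sibling cartilage cells. Of its 2 genes considered in each library, 1 was at least 2-fold higher than in the other cells and 1 at least 2-fold lower. The epidermal list differed between the libraries, with 139 CPM in *rb1* mutant and 567 CPM in sibling cartilage cells, and with at least 3 of its 8 genes in 2 and 23 cells. *krt4* had a UMI in 22.4% and 37.9% of cartilage cells and in 8.5% and 27.7% of neurons, and thinned in 15.9% and 23.2% and in 4.02% and 17.9%, so this epidermal RNA was also in more neurons of the sibling library. In all, 16 *rb1* mutant and 29 sibling cartilage cells had UMIs of at least 3 genes of a neuronal, muscle, red blood, epidermal, macrophage or endothelial list.

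Most of the listed cell cycle genes were lower in cartilage cells than in the other cells. Of the listed genes, 20 of 22 considered in the *rb1* mutant and 18 of 20 in the sibling library were at least 2-fold lower than in the other cells, where 41.1% and 42.2% of all genes considered were. *pcna*, a replication factor, had 44.8 and 48.7 CPM in cartilage cells, against 469 and 302 CPM in the other cells, and *mki67*, a marker of dividing cells, 14.3 and 19.6 CPM, against 214 and 129 CPM. The inhibitor *cdkn1ca* had 68.9 and 54.7 CPM, against 18.4 and 25.3 CPM in connective tissue cells. At least 3 of 24 cycling genes were found in 16 of 134 *rb1* mutant cells (11.9%, 6.98–18.7) and 9 of 140 sibling cells (6.43%, 2.98–11.9), against 38.1% and 14.3% of the other retained cells. With each cell thinned to 2000 UMIs the counts were 3 of 132 (2.27%, 0.471–6.50) and 5 of 138 (3.62%, 1.19–8.25), so the order of the libraries was the opposite and the intervals overlapped. The thinned shares were 20.7% and 16.0% in connective tissue cells and 35.6% and 16.6% in the other retained cells, so the cartilage cells of both libraries had fewer. At least 1 of the 24 genes was found in 72 of 134 *rb1* mutant cells (53.7%, 44.9–62.4) and 42 of 140 sibling cells (30%, 22.6–38.3), and in 59.96% and 30.9% of neurons. Thinned, it was found in 25 of 132 (18.9%, 12.6–26.7) and 19 of 138 (13.8%, 8.5–20.7), and in 56.2% and 22.8% of neurons. The 2 intervals of the cartilage cells were apart before thinning and overlapped after it. In no case was the share in cartilage cells above that in neurons. Neurons are not known to lack these genes, so their share does not measure free RNA. No difference in cycling is read from these shares, and their cause was not tested.

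The cartilage cells differed in *matn1* and in genes that moved with it, and whether as a single range or as separate groups of cells was not tested. This was noticed in the data, and each library was then divided at the median *matn1* CPM of its cartilage cells, into 67 and 67 *rb1* mutant and 70 and 70 sibling cells. The cells above the median were deeper, with medians of 9097 and 7598 UMIs in the *rb1* mutant and 8603.5 and 6621 in the sibling library, and since the division uses the counts of the same cells it is a description. Of 1266 genes with at least 60 UMIs in each library, 49 in the *rb1* mutant (3.87%) and 40 in the sibling library (3.16%) were at least 2-fold higher in the cells above the median, 25 of them in both, and 76 (6%) and 72 (5.69%) were at least 2-fold lower, 43 of them in both. The 25 include *matn1*, which set the division, and *ucmab*, *mia*, *snorc* and *epyc*, which helped to choose the cells. The genes named next were chosen for this pattern after their values were seen.

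Several genes of the extracellular matrix were higher where *matn1* was higher. With the cells of each library ranked by *matn1* CPM and divided into 4 bins of 33 to 35 cells, from low to high, *pcolceb* had 46.7, 92.4, 456 and 1395 CPM in the *rb1* mutant library and 103.9, 354, 931 and 2189 CPM in the sibling library. *fbln7*, a fibulin, had 0 UMIs in the lower 2 bins of *rb1* mutant cells, 52.2 and 226 CPM in the upper 2, and 12, 54.4, 127 and 338 CPM in the sibling library. *ucmab*, which is a gene of the rule, had 479, 1053, 1659 and 2975 CPM, and 1091, 1399.9, 3188 and 4445 CPM in the sibling library. *CLEC3A*, a lectin of cartilage in mammals, had 189.9 CPM above and 13.8 CPM below the median in the *rb1* mutant library, and 243 and 35.5 CPM in the sibling library. *col2a1a* had 9399, 16313, 19487 and 30356 CPM by bin in the *rb1* mutant and 11562, 19552, 25805 and 34346 CPM in the sibling library, a smaller range than that of *pcolceb*.

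Other genes ran the other way in both libraries, and not all in the same cells. *col5a1*, a collagen of connective tissue and of the perichondrium around cartilage, had 475, 277, 86.9 and 34 CPM by bin in the *rb1* mutant and 483, 350.0, 115 and 38.9 CPM in the sibling library. *krt18a.1*, a simple keratin gene, had 3147, 613, 504 and 170.1 CPM in the *rb1* mutant and 4287, 1135, 822 and 350.4 CPM in the sibling library, and its partner *krt8* had 211 CPM above and 993 CPM below the median of *rb1* mutant cells and 327 and 1389 CPM of sibling cells. *krt18a.1* had a UMI in 87.3% and 86.4% of cartilage cells and 2.57% and 4.54% of neurons. *fhl1b*, a LIM protein, was almost confined to the lowest bin, with 352 CPM there and 11.1 CPM in the next in the *rb1* mutant library, and 411 and 3.89 CPM in the sibling library. It came from 18 *rb1* mutant cells and 14 sibling cells. The *rb1* mutant cell with the most *krt18a.1* UMIs, 83, had 0 of *col5a1*, and the one with the most *col5a1* UMIs, 69, had 3 of *krt18a.1*. In the sibling library the cell with the most *krt18a.1*, 103 UMIs, had 2 of *col5a1*, and the one with the most *col5a1*, 49 UMIs, had 14 of *krt18a.1*. *krt18a.1* and *col5a1* thus peaked in different cells. *hapln1a* had 318, 248, 101 and 9.28 CPM in the *rb1* mutant and 643, 128, 78.9 and 29.9 CPM in the sibling library. The chromatin protein gene *hmgn2* had 2117, 1467, 723 and 489 CPM in the *rb1* mutant and 1454, 696, 361 and 252 CPM in the sibling library. The epidermal keratin gene *krt4* was lower above the median too, with 16.4 against 227 CPM in the *rb1* mutant and 57.3 against 422 CPM in the sibling library. Epidermal RNA thus moved with the *matn1* ranking, and its part in the result was not tested. *sox9a* had 84.8 and 74.2 CPM in the lowest and the highest bin of *rb1* mutant cells and 83.9 and 53.9 CPM in those of sibling cells, with counting intervals that overlapped. *sox10* had 246, 137, 146 and 136 CPM by bin in the *rb1* mutant and 152, 101, 139.5 and 129 CPM in the sibling library, so that its lowest bin stood above the highest in the *rb1* mutant library (187–318 against 98.9–183) and not beyond counting error in the sibling library.

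**Figure D3:**
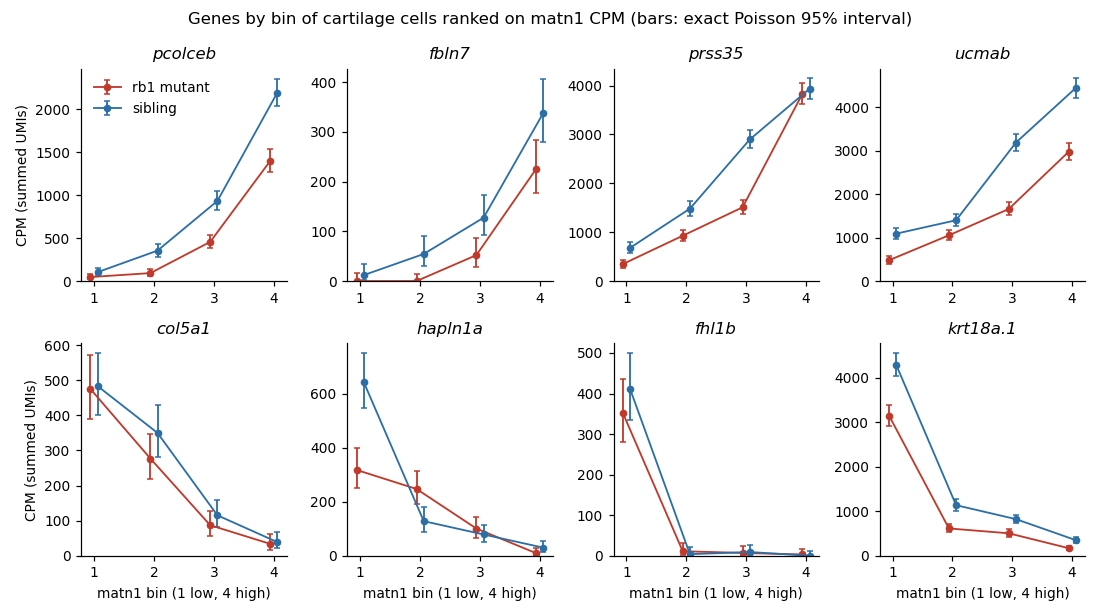
CPM of 8 genes in 4 bins of the cartilage cells ranked by *matn1* CPM (33 to 35 cells a bin), for the *rb1* mutant (red, drawn left) and the sibling library (blue). Points are summed UMIs over the bin, bars exact Poisson 95% intervals for counting error; *pcolceb*, *fbln7*, *prss35* and *ucmab* (upper row) are highest in the fourth bin, and *col5a1*, *hapln1a*, *fhl1b* and *krt18a.1* (lower row) in the first.

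The comparison of *rb1* mutant with sibling cartilage cells asks whether these cells differ with loss of *rb1*, and rests on 1 library each. *rb1* itself (ENSDARG00000006782) had 5 UMIs in *rb1* mutant and 2 in sibling cartilage cells, and 5.49 and 6.03 CPM in the other cells, so its RNA does not check the labels. *kmt5b*, which encodes a histone methyltransferase, had 10 and 10 UMIs. Of 2733 genes with at least 50 UMIs over both libraries, 42 (1.54%) were at least 2-fold higher and 76 (2.78%) at least 2-fold lower in the *rb1* mutant library, with a median log2 ratio of −0.05. No gene of the rule, of the listed collagens, of the listed matrix proteins, of the chondrogenic factors or of signalling was among them.

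Within 2-fold, several genes of the cartilage matrix were lower in *rb1* mutant cartilage cells. Of these *matn1*, *ucmab* and *snorc* are genes of the rule, so their levels follow in part from the choice of cells. The ratio of *rb1* mutant to sibling CPM was 0.652 (0.64–0.663) for *matn1*, 0.608 (0.573–0.644) for *ucmab* and 0.712 (0.668–0.758) for *snorc*. It was 0.561 (0.508–0.619) for *pcolceb*, 0.59 (0.483–0.719) for *itih1* and 0.604 (0.484–0.752) for *ccn6*. Not all of the matrix genes followed, since *mia* had 0.974 (0.933–1.02), *tnxba* 1.02 (0.974–1.06) and *fgfbp2b* 1.07 (1.05–1.1). *matn4* had 1.3 (1.21–1.4), of which 300 of 1775 *rb1* mutant UMIs were in 1 cell, and with cells of 3 markers included its ratio was 0.902. Of 9 listed collagens, 8 had a ratio under 1, with *col2a1a* at 0.828 (0.814–0.843), *col9a1a* at 0.792 (0.763–0.822) and *col11a1a* at 0.885 (0.86–0.912), and with the collagen chaperone *serpinh1b* at 0.717 (0.693–0.743). The chondrogenic factors were on the other side, with 6 of 7 over 1, but the intervals of *sox10* at 1.24 (0.994–1.55), *sox9a* at 1.19 (0.845–1.67) and *sox6*, the one under 1, at 0.975 (0.866–1.1) held 1. The median log2 ratio was −0.27 over the collagens and 0.21 over the factors, against −0.05 over all 2733 genes compared. Of the genes named for position or for the *matn1* ranking, *dlx5a* had 0.676 (0.541–0.842) and *fbln7* 0.536 (0.41–0.697).

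Fewer of the *rb1* mutant cartilage cells were high in *matn1*. Of the *rb1* mutant cartilage cells, 53 of 134 (39.6%, 31.2–48.4) were at or above the median *matn1* level of both libraries together, 15488 CPM, against 84 of 140 sibling cells (60%, 51.4–68.2). *matn1* is a gene of the rule, and the cut came from these same cells, so a higher share in 1 library means a lower share in the other. The intervals cover counting error over the cells of 1 library each. Outside the cartilage cells, where cartilage genes were low, the *rb1* mutant to sibling ratio was 0.516 for *matn1*, 0.555 for *ucmab* and 0.589 for *col2a1a*. Fewer cells high in *matn1* and less *matn1* RNA per cell cannot be told apart from summed levels, and how far either would vary between brains of 1 genotype was not measured.

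The 10 genes with the highest ratio in *rb1* mutant cartilage cells included chaperones of histones. *nasp* (ENSDARG00000039208), which carries histones H3 and H4, had 63 UMIs in 43 *rb1* mutant cells and 11 UMIs in 7 sibling cells, 56.4 and 9.39 CPM, a ratio of 6.0 (3.14–12.6). It was also higher in the other cells of the *rb1* mutant library, with 167 against 79 CPM. The share of cartilage cells with a UMI of *nasp* was 32.1% and 5.0%, and after thinning 8.33% and 1.45%, while in neurons it was 33.3% and 10.5%, and 23.5% and 7.12% after thinning. In both libraries the share in cartilage cells was below that in neurons. Neurons are not known to lack *nasp*, so their share does not measure free RNA. The part of free *nasp* RNA in the cartilage cells was not tested. *hirip3*, another histone-binding protein, had 42 UMIs in 32 *rb1* mutant cells and 13 UMIs in 8 sibling cells, a ratio of 3.39 (1.78–6.88), and *xpc*, a DNA damage sensor, had 53 UMIs in 40 *rb1* mutant cells and 15 UMIs in 12 sibling cells, 3.7 (2.06–7.07). After thinning the ratio was 6.80 for *nasp*, 1.46 for *hirip3* and 1.22 for *xpc*, on few counts.

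The remaining 7 were *rrm2*, *kpna2*, *zgc:65997*, *srek1ip1*, *hebp2*, *basp1* and *soul5*, with ratios of 3.12 to 4.40. Single cells made part of this list, since 28 of 42 UMIs of *rrm2*, a subunit of ribonucleotide reductase, and 36 of 39 UMIs of *kpna2*, a nuclear import factor, were in 1 *rb1* mutant cell. Without the top cell of each library the ratio was 2.1 for *rrm2* and 1.58 for *kpna2*. Of the 42 genes at least 2-fold higher, 27 (64.3%) were above 1 and 4 (9.52%) at least 2-fold higher in the other cells as well, as were 35.2% and 0.402% of all 2733 genes compared. *basp1*, a growth cone protein of neurons, had the opposite direction there, with 162 and 213 CPM. *hebp2* and *soul5*, of the heme-binding proteins, were higher in the other cells too, with 2.27 and 2.12, and 29 of 110 *rb1* mutant UMIs of *soul5* were in 1 cell. The listed cell cycle genes with enough counts numbered 4, and *rrm2* was the one at least 2-fold higher, while *pcna* had 0.919 (0.616–1.37).

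**Figure D4:**
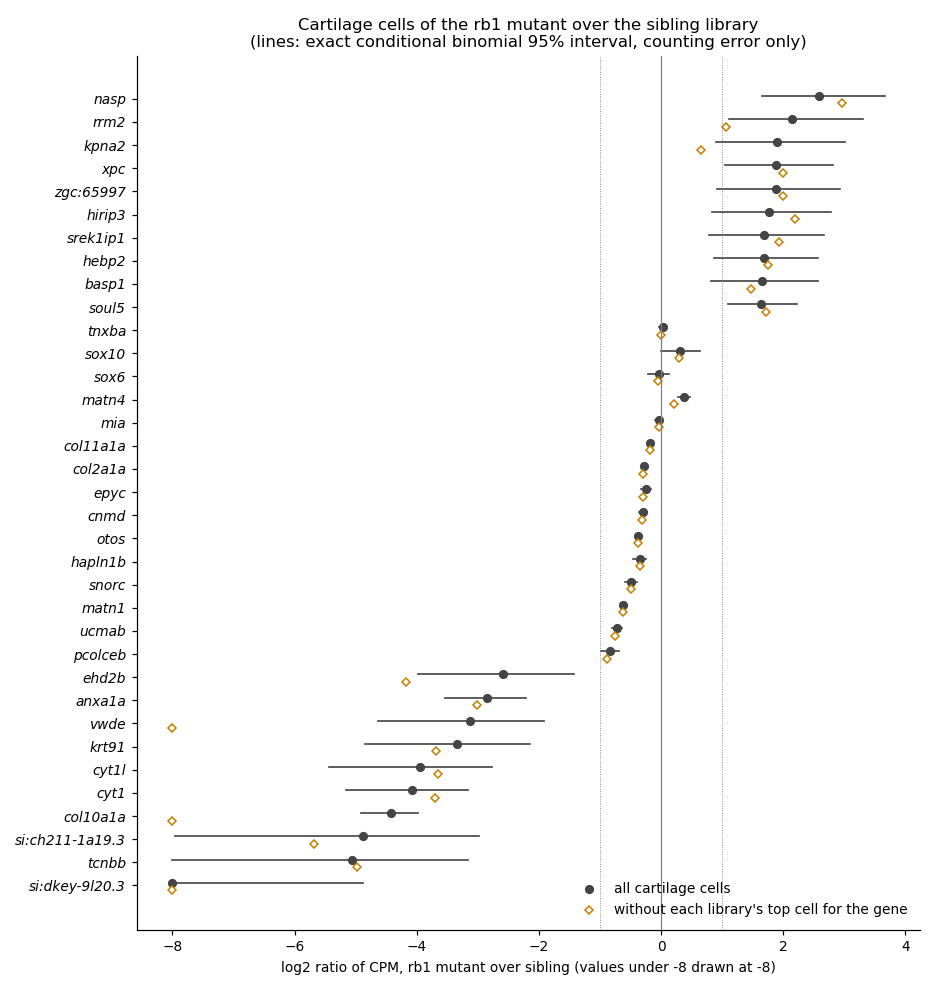
Log2 ratio of CPM in *rb1* mutant over sibling cartilage cells for the 10 highest and 10 lowest genes with at least 50 UMIs over both libraries and 15 cartilage genes between them. Filled circles are all cartilage cells with exact 95% intervals for counting error, open diamonds the same ratio without the cell richest in the gene in each library, and ratios of 0 and others off the scale are drawn at its left edge; the 15 cartilage genes lie inside the dotted 2-fold lines, while *col10a1a* and *vwde* move to 0 without their top cells.

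The 10 genes with the lowest ratio included keratin genes of the epidermis and genes that rested on few cells. The keratin genes *cyt1*, *cyt1l* and *krt91* had 8.95 and 150.3 CPM, 5.37 and 82.8 CPM and 5.37 and 54.7 CPM, ratios of 0.0596 (0.0281–0.112), 0.0648 (0.0232–0.146) and 0.0983 (0.0348–0.226). They were also lower in the other cells of the *rb1* mutant library, with ratios there of 0.317, 0.325 and 0.254. *anxa1a*, an annexin, had 0.139 (0.086–0.216), against 0.338 in the other cells, and *tcnbb*, a transcobalamin gene, 0.0299 (0.00356–0.112), against 0.0737. Without cartilage cells that had 3 or more markers of another cell type the ratio of *cyt1* was 0.390. The epidermal genes thus moved with the library, as *krt4* did in neurons, and the part of free epidermal RNA in these values was not tested. *si:dkey-9l20.3* had 0 UMIs in *rb1* mutant cartilage cells and 116 UMIs in 5 sibling cells, 57 of them in 1 cell, and 1.82 and 108 CPM in the other cells.

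*col10a1a* and *vwde*, a gene of the von Willebrand factor domain family, rested on single cells: *vwde* had 6 UMIs in 1 *rb1* mutant cell and 55 UMIs in 2 sibling cells, and without the top cell of each library both genes had 0 *rb1* mutant UMIs left. *si:ch211-1a19.3* was spread more evenly, with 2 UMIs in 2 *rb1* mutant cells and 62 UMIs in 29 sibling cells, 1.79 and 52.9 CPM, a ratio of 0.0338 (0.00401–0.127), and 0.341 and 2.36 CPM in the other cells. *ehd2b*, of the membrane-shaping EHD proteins, had 7 UMIs in 3 *rb1* mutant cells and 44 UMIs in 17 sibling cells, a ratio of 0.167 (0.0634–0.373). Of the 76 genes at least 2-fold lower, 70 (92.1%) were below 1 and 16 (21.1%) at least 2-fold lower in the other cells too, as were 64.8% and 1.32% of all genes compared. Connective tissue genes were among the 76, with *col1a1a* at 0.292 (0.199–0.419) and *col1a2* at 0.379 (0.29–0.491), and 63 of 140 sibling UMIs of *col1a1a* were in 1 cell. No interval above covers the difference between brain pools, so a ratio whose interval leaves out 1 is a difference between these 2 libraries.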

How the data were processed

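The study dissociated whole brains of *rb1* smu2/smu2 mutants and siblings at 3 dpf and sequenced 1 droplet library of each. The deposited values were UMI counts per gene and barcode, made by the authors with Cell Ranger (5.0.0 in the file headers, 5.1.0 in the submitters' processing notes, which also name Seurat 3.1.1 and GRCz11) on Ensembl release 104, with valid barcodes called by EmptyDrops. Only reads mapped uniquely and to exons were counted, so near-identical paralogs lose reads. The dense tables were not used.

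Here 32057 gene IDs were summed to 31323 symbols, and retained barcodes were those given in the report, with no removal of doublets or correction for free RNA. Counts were added up across cells of the same class and library and given as CPM, since 1 library per genotype allows no test across libraries. A gene was considered against other cells at a mean CPM of at least 20, and between genotypes at 50 UMIs or more over both libraries. A ratio of at least 2-fold was counted as higher or lower. Thinning drew 2000 UMIs from each cell without replacement. Molecules are counted by UMIs, and intervals cover counting error only. Of 384 listed symbols, 372 were found.

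Named were members of the rule, collagen, matrix, factor and bone lists with 10 or more UMIs in a library, up to 6 of each other list by CPM, the 15 with the highest ratio to other cells, the 10 highest and lowest between genotypes, *rb1* and *kmt5b*. Genes outside this rule, and list members at 0 or with few UMIs, were named after their values were seen. These were the genes listed with few or 0 UMIs, *fbln7*, *krt18a.1*, *krt8*, *fhl1b* and *hmgn2*. The cartilage cells and the gene lists were chosen with earlier results of these data known. Alternatives were other marker numbers, other limits on barcodes, doublets left out (Scrublet, the top 7.5%), cells with other markers left out, thinning, other scalings, weights and filters. The steps ran in Python 3.11.15 with numpy 2.4.6, scipy 1.17.1, pandas 2.3.3, scanpy 1.11.5 and matplotlib 3.10.9 and were tested on simulated data.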

Additional observations from a re-analysis of the deposited data

Results flagged for a closer look

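Barcodes outside the limits also carried the cartilage genes. UMIs of at least 4 of the 6 markers were found in 6 barcodes of the *rb1* mutant and 9 of the sibling library that the limits on genes, UMIs and mitochondrial share left out, beside the 134 and 140 cartilage cells. Their depth had a median of 26076.5 and 23864 UMIs. Of these barcodes 5 and 6 had over 3000 genes, 4 and 8 had 20000 UMIs or more, and 1 and 0 had 15% or more mitochondrial UMIs. *matn1* had 20583 CPM in the *rb1* mutant and 16571.5 CPM in the sibling barcodes, and *col2a1a* 30595.5 and 18545 CPM, against 17926 and 27504 CPM of *matn1* and 19735 and 23823 CPM of *col2a1a* in the cartilage cells.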

How the results depend on the processing

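With at least 3 markers cartilage cells were 1.99% of the *rb1* mutant and 2.29% of the sibling library, with at least 5 markers 1.29% of the *rb1* mutant library, and without cells with other markers 1.36% of the sibling library. Genes at least 2-fold higher than in the other cells numbered, in the *rb1* mutant library, 901 with median scaling, 811 with totals without marker, mitochondrial and ribosomal genes, 282 at a mean CPM of at least 50 and 1861 with no filter, and in the sibling library 943, 300 and 1766 with median scaling, at 50 CPM and with no filter. Those lower numbered 869, 626 and 16161 in the *rb1* mutant and 921, 679 and 16311 in the sibling library under these 3 settings, which test other numbers of genes.

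Between genotypes, 6 genes were higher and 16 lower after thinning, where 867 genes had enough UMIs, 10 and 25 at 100 UMIs or more, 170 and 266 at 20 or more, and 219 lower with no upper limits on barcodes, so the counts of 42 and 76 depend on depth and filter. The share of *rb1* mutant cells with 3 or more cycling genes was 2.27% after thinning. Of the ratios between genotypes, *kpna2* at 0.647 and *soul5* at 0.959 were on the other side of 1 with no upper limits, and *rrm2* at 0.314 and *basp1* at 0.713 among cells at or above the median *matn1* level, and the cause was not tested. Of 868 ratios of named genes under 13 alternatives, 696 stayed inside their counting interval and 172 left it. On the other side of 1 from the value reported were 52, and 28 of these had left the interval, among them *matn4* at 0.902 with at least 3 markers, *mia* at 1.19 with no upper limits, *CLEC3A* at 1.76 and *ptgdsa* at 1.05 after thinning and *pcna* at 1.55 with at least 3 markers. Of the 28, 16 came from the cells at or above the median *matn1* level, *col11a1a* at 1.05 and *p4hb* at 1.18 among them, while *serpinh1b* had 0.712 and *hapln1a* 0.453 there, and since those cells were chosen by *matn1* itself their ratios support nothing on the genotypes. The alternatives by *matn1* level and without the top cell were chosen after seeing the data. No paired analysis was possible because each genotype has 1 library, and for the same reason no replicate could be left out. A gene with under 50 UMIs over both libraries was not compared, and genes of low count such as *sox9b* and *runx2b* are limited by depth.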
